A study of Drosophila melanogaster with 8 samples.

Results

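The 9 genes described here make, package and recapture dopamine, serotonin, tyramine and octopamine in the fly head. They were taken as every row of the count files whose symbol is *ple*, *Ddc*, *Trh*, *Tdc1*, *Tdc2*, *Tbh*, *Vmat*, *DAT* or *SerT*. All 9 were found among the 16727 symbols listed, and each had more than 3 counts in each library, the lowest being 45. RNA-seq of adult *Drosophila melanogaster* heads covered 4 libraries with the label w1118 and as many with the label Top3b26, 8 in all. Flies were 1 to 2 weeks old and were kept at 25 °C, and the labels do not give the mix of males and females. w1118 is a white-eyed laboratory strain that served as the control. Top3b26 is a mutant allele of *Top3β*, the gene of a topoisomerase that acts on DNA and RNA, made by remobilizing a p-element, so that the change is carried in every cell of the fly. The labels say nothing on whether libraries with the same genotype came from separate cultures. The methods of the study speak of RNA sets prepared independently, but of fewer sets than there are libraries per label here, so which libraries share a preparation is not known and p-values measure the spread between these libraries only.

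Dopamine is made from tyrosine in a pair of steps. Tyrosine hydroxylase, the product of *ple*, makes dopa with the help of a tetrahydrobiopterin cofactor, and dopa decarboxylase, the product of *Ddc*, turns dopa into dopamine. Serotonin is made by the tryptophan hydroxylase of neurons, *Trh*, followed by the same decarboxylase. Tyrosine decarboxylase, encoded by *Tdc1* and by the neuronal *Tdc2*, makes tyramine, and tyramine beta-hydroxylase, *Tbh*, makes octopamine from it. *Vmat* loads all of these amines into synaptic vesicles, *DAT* takes dopamine back up into neurons and *SerT* takes up serotonin. In flies *ple* and *Ddc* also work in the epidermis, where dopamine is a precursor for the tanning of the cuticle.

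By the current annotation of the dm6 genome, *ple* lies on 3L at 6713356 to 6719525 on the minus strand with 7 exons, and *Ddc* on 2L at 19116483 to 19120306. *Trh*, whose present symbol is *Trhn* and which is distinct from *trachealess*, lies on 3L at 1190384 to 1193173. *Tdc1* (2R, 6677001 to 6680391) and *Tdc2* (2R, 6684745 to 6689974) are neighbors on the same strand. *Tbh* lies on X at 7995697 to 8027394 and is the only member on the plus strand. *Vmat* (2R, 13513132 to 13534251), *DAT* (2R, 16558567 to 16565238) and *SerT* (2R, 24404595 to 24411074) complete the list, and *DAT* is not the N-acetyltransferase gene *Dat*. *Vmat* shares 2129 nt, 26.17% of its exon length, with *CG13330* on the opposite strand. The shared part was 246 nt (10.78%) with *Rpp25* for *Tdc1*, 89 nt (4.08%) with *CG13912* for *Trh* and 88 nt (3.15%) with *CG10561* for *Ddc*. The strand setting of the counting is not given in the sources used here, so reads of these pairs cannot be told apart.

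Libraries held 3301976 to 7591510 counts on genes, and 3 counts correspond to 0.395 to 0.909 counts per 1000000 counts on genes (CPM), the unit used for levels below. *Top3β* itself (*Top3beta* in the files) read 34.0, 40.6, 27.8 and 23.8 CPM in w1118 replicates 1 to 4 and 91.6, 79.9, 44.4 and 42.3 CPM in Top3b26 replicates 1 to 4. It was thus higher in every library with the mutant label (log2 fold change 0.90, SE 0.24, edgeR adjusted p = 0.157), and was called higher within replicates 1-2 (1.07, adjusted p = 3.7e-05) and within replicates 3-4 (0.64, adjusted p = 0.0051). Since a gene has only 1 value per file, the files do not show which part of it was read. Gene counts therefore neither bear out nor contradict the mutant label, and genotypes are named below only as labels. Replicates 1 and 2 of either label stood apart from replicates 3 and 4: their files alone have a header line, and reads with several alignments were 23.7% to 30.4% of reads against 16.6% to 20.1%. These are called the replicate sets 1-2 and 3-4, and the labels are compared over all libraries and within each set. Neuronal markers were abundant, with all 8 listed genes detected and a summed level of 8240 to 9151 CPM under w1118 and 8878 to 11528 CPM under Top3b26. The 4 testis and 4 ovary markers reached at most 4 and 27 counts per gene, summed over the 8 libraries. In whole heads, fewer cells of a type and less RNA per cell cannot be told apart.

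Over all 8 libraries, none of the 9 genes was called different between the labels. A gene was called when edgeR's quasi-likelihood test, adjusted by Benjamini-Hochberg over all 9633 genes tested, gave an adjusted p of at most 0.05 and the fold change was at least 1.5. Under this rule 0 of 9 members were called, against 0.914% of all genes tested, and 0 of 9 reached an unadjusted p of 0.05, against 12.4%. DESeq2 and limma-voom also called 0. With the replicate number as a block, or with a term for the replicate set, 0 of 9 were called as well, while 3.82% and 5.6% of all genes were. With the set term, 1 of 9 reached an unadjusted p of 0.05, as did 1038 genes upward and 1383 downward among the 9633 tested. The levels of every member overlapped between the labels, while 10.2% of all genes did not overlap. Scaling by library totals alone, in place of edgeR's TMM factors, moved the median log2 fold change of all genes from -0.01 to 0.12, and the fold changes below are relative to the TMM scale.

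**Figure D1:**
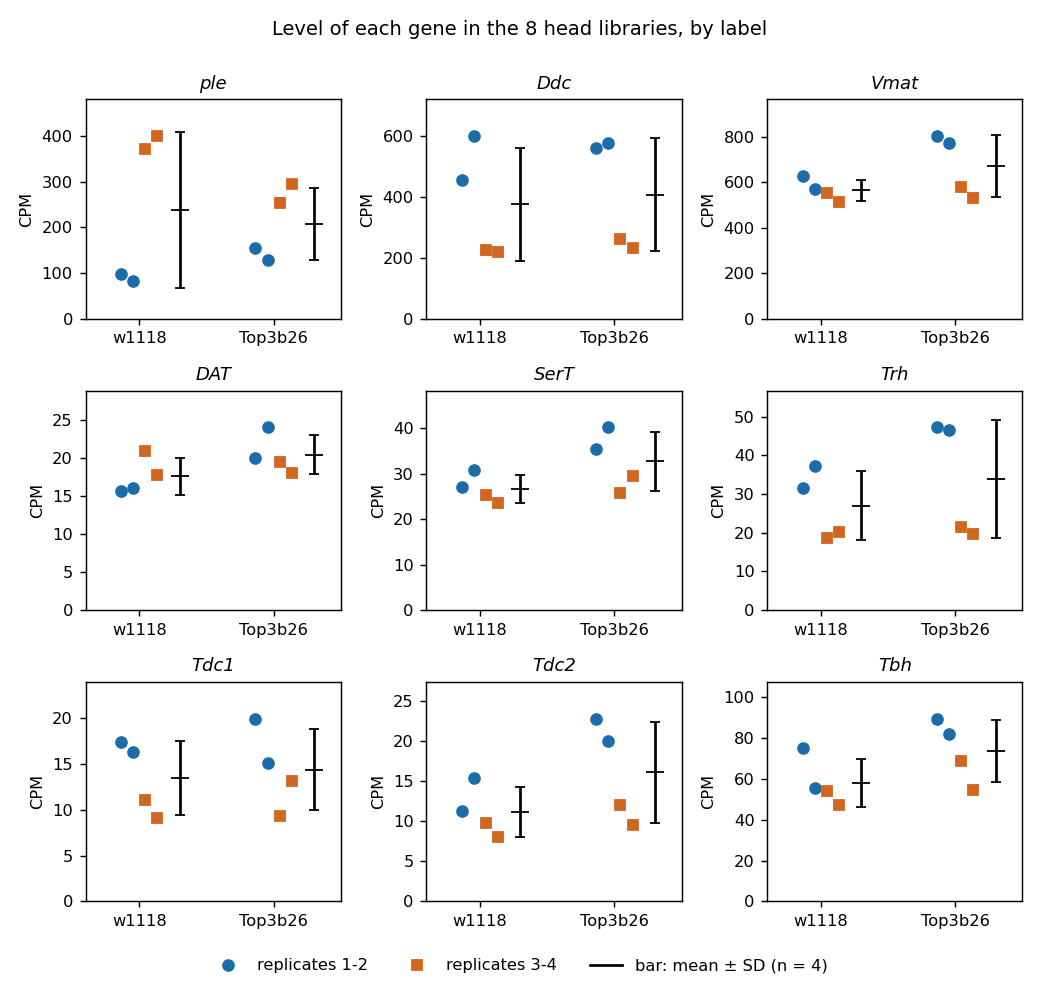
Level of each of the 9 genes in CPM (linear axes from 0) for the 4 w1118 and the 4 Top3b26 libraries, with circles for replicates 1-2, squares for replicates 3-4 and bars for the mean ± SD (n = 4). Every gene overlaps between the labels, and *ple*, *Ddc*, *Trh* and *Tdc1* separate the 2 replicate sets, as 31.0% of all genes tested do.

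*ple*, which encodes the enzyme that limits dopamine synthesis, varied most among the 9 genes, with a highest library 4.86 times the lowest. It read 97.8, 82.4, 371 and 400 CPM in w1118 replicates 1 to 4 and 154, 129, 253 and 294 CPM in Top3b26 replicates 1 to 4. Both Top3b26 libraries lay above both w1118 libraries in replicates 1-2 and below them in replicates 3-4. Such a separation of 2 libraries from 2 was common, with 59.6% of all genes in replicates 1-2 and 59.5% in replicates 3-4. The means over all libraries were 238 ± 171 and 208 ± 78.7 CPM (SD, n = 4 each), and the log2 fold change was -0.35 (SE 0.58, edgeR adjusted p = 0.854). The interval of 2 standard errors spans folds of 0.353 to 1.75, and both a rise of 1.5-fold and a fall of 1.5-fold lie within it. Here and below, the width of 2 standard errors is fixed and makes no allowance for the small number of libraries. With the replicate block the estimate was -0.07 and the interval 0.706 to 1.29, and with the set term it was 0.722 to 1.25. Neither 1.5-fold change lies within these intervals, but both fits assume the same difference in both sets. The sets differed in sign (below), so the intervals do not exclude a 1.5-fold change within either set. The unweighted difference in mean log2(CPM + 1) had the other sign, 0.07 (two-sided exact permutation p = 0.914, where 0.02857 is the smallest possible with 70 splits).

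Within replicates 1-2 *ple* was higher in the Top3b26 libraries by a log2 fold change of 0.50 (SE 0.15, edgeR adjusted p = 0.026), which is under the 1.5-fold minimum. There, 0 of 9 members were called, against 10.5% of all genes, and *ple* was the only member to reach an adjusted p of 0.05, as 14.3% of all genes did. It was 0.64 and called with library totals alone as the scale, while its adjusted p was 0.056 with DESeq2 and 0.114 with an offset for exon length (0.30). Leaving out a library within a set leaves 1 library under its label, which is then assumed to vary like the 2 of the other label. On that assumption the value was 0.64 (adjusted p = 0.0021) and called without w1118 replicate 1, 0.38 (0.112) without w1118 replicate 2, 0.38 (0.319) without Top3b26 replicate 1 and 0.61 (0.054) without Top3b26 replicate 2. Within replicates 3-4 it was lower in the Top3b26 libraries by a log2 fold change of -0.60 (SE 0.10, edgeR adjusted p = 0.0025). It was the only member called there, 1 of 9, against 7.48% of all genes called and 5.95% called lower. That value stood close to the fold minimum, and it was no longer called without w1118 replicate 4 (-0.52), without Top3b26 replicate 3 (-0.49) or with library totals alone (-0.49), although the adjusted p stayed under 0.05 in each.

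The difference between the *ple* changes in the 2 sets was itself tested. The log2 fold change in replicates 3-4 minus that in replicates 1-2 was -1.13 (SE 0.18, edgeR adjusted p = 5.0e-04). This ranked 156 of 9633 genes by p, and *ple* was the only member called, 1 of 9, against 6.93% of all genes called and 3.11% called with this sign. It held under 8 other scalings, filters and tests, between -1.14 and -1.09, and with each library left out in turn, between -1.26 and -0.97. A separation of the labels in opposite directions in the 2 sets was found in 9.32% of all genes tested.

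Markers of other cell types also differed between the labels within the sets, and their part in the *ple* differences was not tested. In replicates 1-2 the 6 photoreceptor markers, all detected, summed to 35324 to 38506 CPM under w1118 and to 1828 to 1943 CPM under Top3b26, and all 6 were called lower. In replicates 3-4 they summed to 27803 to 30177 and 20487 to 25136 CPM, and 3 of the 6 were called lower. The 6 fat body markers summed to 10087 to 13938 and 9889 to 16787 CPM in replicates 1-2, and to 38502 to 52471 and 9440 to 12066 CPM in replicates 3-4. This list holds the yolk protein genes *Yp1*, *Yp2* and *Yp3*, and the labels do not give the mix of males and females. *Yp1* alone read 14560 and 19891 CPM in w1118 replicates 3 and 4. In replicates 1-2, 1 of the 5 tested was called higher (*Lsp2*, 1.77) and 1 lower (*Rfabg*, now *apolpp*, -0.60). In replicates 3-4, 1 of 6 was called higher (*Fbp1*, 1.69, at most 2.76 CPM) and 5 lower. Neuronal markers summed to 8240 to 8942 and 8878 to 9091 CPM in replicates 1-2 and to 9149 to 9151 and 10108 to 11528 CPM in replicates 3-4, with 0 of 8 called in either set.

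*Ddc*, the decarboxylase shared by dopamine and serotonin synthesis, read 456, 600, 225 and 219 CPM in w1118 replicates 1 to 4 and 560, 575, 262 and 231 CPM in Top3b26 replicates 1 to 4. The levels fell into the 2 replicate sets and not into the labels. The log2 fold change between labels was -0.01 (SE 0.37, edgeR adjusted p = 0.997), with folds of 0.599 to 1.65 inside 2 standard errors. With the replicate number as a block, which removes the difference between sets, the value was 0.0066 and the same interval narrowed to folds of 0.866 to 1.17. Changes of 1.5-fold in either direction therefore lay outside the interval of the blocked fit.

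*Trh*, the enzyme that commits tryptophan to serotonin in neurons, read 31.5, 37.3, 18.7 and 20.3 CPM in w1118 replicates 1 to 4 and 47.2, 46.7, 21.6 and 19.6 CPM in Top3b26 replicates 1 to 4. It was higher in Top3b26 in replicates 1-2 and the labels overlapped in replicates 3-4. The log2 fold changes were 0.20 (SE 0.30, edgeR adjusted p = 0.837) over all libraries, 0.32 (adjusted p = 0.233) in replicates 1-2 and -0.04 (adjusted p = 0.912) in replicates 3-4. Neither set passed the test, and the difference between the sets, -0.39, did not pass either (adjusted p = 0.358).

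*Tdc2*, the tyrosine decarboxylase of neurons, had the largest estimate of the 9 over all libraries. It read 11.2, 15.4, 9.85 and 8.04 CPM under w1118 and 22.8, 20.0, 12.0 and 9.50 CPM under Top3b26, in the order of replicates 1 to 4. The 2 highest libraries were Top3b26 replicates 1 and 2, and the other 6 overlapped. The log2 fold change was 0.41 (SE 0.26, edgeR adjusted p = 0.573), and 0.57 (SE 0.23, adjusted p = 0.112) within replicates 1-2. In that set *Tdc2* was called with library totals alone (0.72, adjusted p = 0.038) and, with 1 w1118 library left and assumed to vary like the Top3b26 pair, without w1118 replicate 2 (0.77, adjusted p = 0.030). In replicates 3-4 the value was 0.15 (adjusted p = 0.718). With the replicate block it was 0.37, with folds of 1.02 to 1.64 within 2 standard errors (adjusted p = 0.278). With the set term it was 0.38, with folds of 1.03 to 1.63 (adjusted p = 0.189). Both intervals lie above no change and hold a rise of 1.5-fold, but neither fit passed the adjusted test. The counts of *Tdc2* were 51 to 134 per library.

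*Tdc1*, the paralog expressed largely outside the nervous system, read 17.4, 16.4, 11.1 and 9.09 CPM under w1118 and 19.9, 15.1, 9.34 and 13.2 CPM under Top3b26. The labels overlapped in both sets, and the log2 fold change was -0.02 (SE 0.23, edgeR adjusted p = 0.985), with -0.11 and 0.08 in replicates 1-2 and 3-4 (adjusted p = 0.818 and 0.861). *Tbh*, which completes octopamine synthesis, read 74.9, 55.7, 54.2 and 47.3 CPM under w1118 and 89.4, 82.1, 68.7 and 54.7 CPM under Top3b26. It was higher under Top3b26 for each replicate number, by a log2 fold change of 0.21 (SE 0.15, edgeR adjusted p = 0.607), which did not pass the test. Within the sets it was 0.23 (adjusted p = 0.389) and 0.17 (adjusted p = 0.475). Folds of 0.941 to 1.43 lay within 2 standard errors.

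Of the transporters, *Vmat* was the most abundant in CPM, at 625, 568, 552 and 514 CPM under w1118 and 803, 771, 579 and 531 CPM under Top3b26. Both Top3b26 libraries were above both w1118 libraries in replicates 1-2, and the labels overlapped in replicates 3-4. The log2 fold change was 0.11 (SE 0.13, edgeR adjusted p = 0.774) over all libraries, 0.25 (adjusted p = 0.207) in replicates 1-2 and -0.05 (adjusted p = 0.805) in replicates 3-4. The opposite-strand gene *CG13330* ranged from 81.5 to 209 CPM over the 8 libraries.

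*DAT* read 15.7, 16.1, 21.0 and 17.8 CPM under w1118 and 20.1, 24.1, 19.5 and 18.1 CPM under Top3b26, in 53 to 161 counts. It was higher under Top3b26 in replicates 1-2 (0.34, edgeR adjusted p = 0.344) and overlapped in replicates 3-4 (-0.15, adjusted p = 0.611). The difference between the sets was -0.52 (SE 0.25, adjusted p = 0.268). *SerT* read 27.1, 30.9, 25.3 and 23.6 CPM under w1118 and 35.5, 40.2, 25.7 and 29.4 CPM under Top3b26. Both Top3b26 libraries lay above both w1118 libraries in each set, but the log2 fold changes of 0.17 (SE 0.13, adjusted p = 0.656) over all libraries and 0.26 and 0.08 within the sets did not pass the test.

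**Figure D2:**
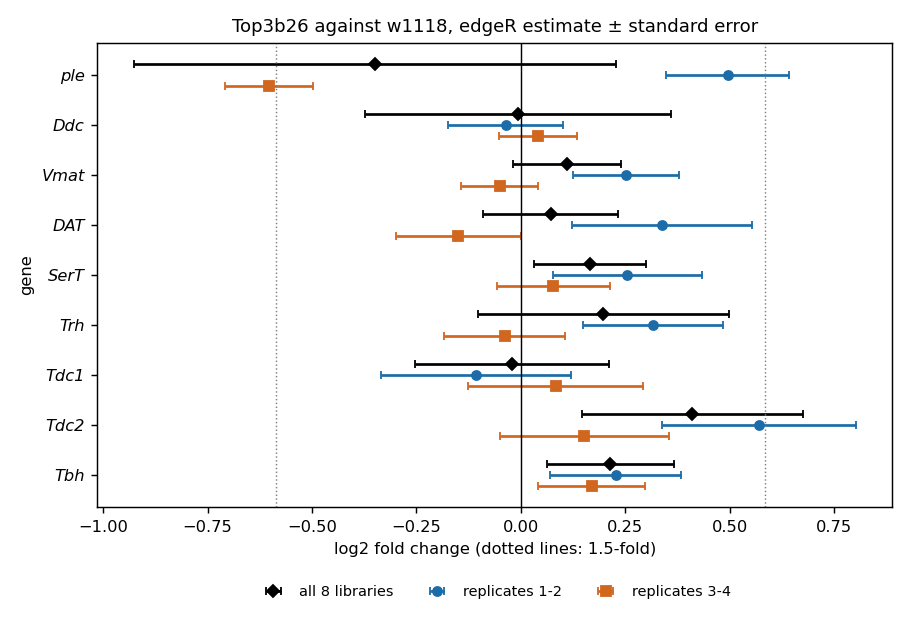
log2 fold change of Top3b26 against w1118 for each gene (x axis), estimated with edgeR over all 8 libraries (diamonds), in replicates 1-2 (circles) and in replicates 3-4 (squares), with bars of 1 standard error and dotted lines at a 1.5-fold change. *ple* lies at 0.50 in replicates 1-2 and at -0.60 in replicates 3-4, while the other 8 genes lie between -0.15 and 0.57.

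The replicate sets differed by more than the labels for several members. The difference was tested in a fit with label and set, a comparison added after the values had been seen. *ple* was higher in replicates 3-4, and *Ddc*, *Trh* and *Tdc2* were lower there, so that 4 of 9 members were called, against 18.6% of all genes (12.3% higher and 6.32% lower). *ple* rose by a log2 fold change of 1.68 (SE 0.20, edgeR adjusted p = 1.1e-04). By mean CPM it was 4.28 times as high in replicates 3-4 as in replicates 1-2 under w1118 and 1.93 times as high under Top3b26. *Ddc* fell by 1.06 on the log2 scale (SE 0.10, adjusted p = 2.3e-05), to 0.421 and 0.434 of its level in replicates 1-2 under w1118 and Top3b26. *Trh* fell by 0.83 (SE 0.12, adjusted p = 3.6e-04).

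*Tdc2* fell by 0.62 (SE 0.17, edgeR adjusted p = 0.014). That call was lost without w1118 replicate 2 (-0.58), Top3b26 replicate 1 (-0.54) or Top3b26 replicate 4 (-0.50), and with an offset for exon length (-0.49). *Tdc1* had a log2 fold change of -0.51 (SE 0.15, adjusted p = 0.024), under the fold minimum, and was called without Top3b26 replicate 2 (-0.59) or replicate 4 (-0.64). *Tbh* (-0.26, adjusted p = 0.102), *SerT* (-0.18, adjusted p = 0.216), *Vmat* (-0.17, adjusted p = 0.206) and *DAT* (0.18, adjusted p = 0.348) did not pass. In CPM, *ple*, *Ddc*, *Trh* and *Tdc1* did not overlap between the sets, 4 of 9, against 31.0% of all genes.

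All genes called between the sets numbered 1183 higher and 609 lower in replicates 3-4. That split was 841 and 1245 with library totals alone, 965 and 904 with upper-quartile factors and 1678 and 306 with an offset for exon length, and the median log2 fold change of all genes was -0.02, -0.18, -0.12 and 0.14 in these fits. The directions of *ple*, *Ddc*, *Trh*, *Tdc1* and *Tdc2* were the same in all of them. Markers moved between the sets as well, and their part was not tested. *roX1*, a non-coding RNA of males, read 3082 to 4709 CPM in replicates 1-2 and 1038 to 1803 CPM in replicates 3-4 (-1.21, edgeR adjusted p = 4.3e-05). The 5 glial markers, all detected, summed to 1612 to 1896 and 2293 to 2798 CPM, with 3 called higher. Of these 5, *repo* went the other way (-0.48, edgeR adjusted p = 0.015), under the fold minimum. The 5 muscle markers, all detected, summed to 1968 to 3132 and 6196 to 8915 CPM without overlap. Of the 4 tested, 3 were called higher, *Mlc2* by 2.15, *up* by 1.65 and *Mhc* by 1.51, while *Act88F* was at -0.25 and not called. Of the 6 photoreceptor markers, 3 were called higher in replicates 3-4, but their sum moved in opposite directions under the labels. Under w1118 it fell from 35324 to 38506 CPM in replicates 1-2 to 27803 to 30177 CPM in replicates 3-4. Under Top3b26 it rose from 1828 to 1943 CPM to 20487 to 25136 CPM. Of the 8 neuronal markers, *nSyb* and *Syt1* were called higher in replicates 3-4, by 0.61 and 0.66. *Syx1A* was lower there (-0.46, edgeR adjusted p = 0.0062), under the fold minimum.

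**Figure D3:**
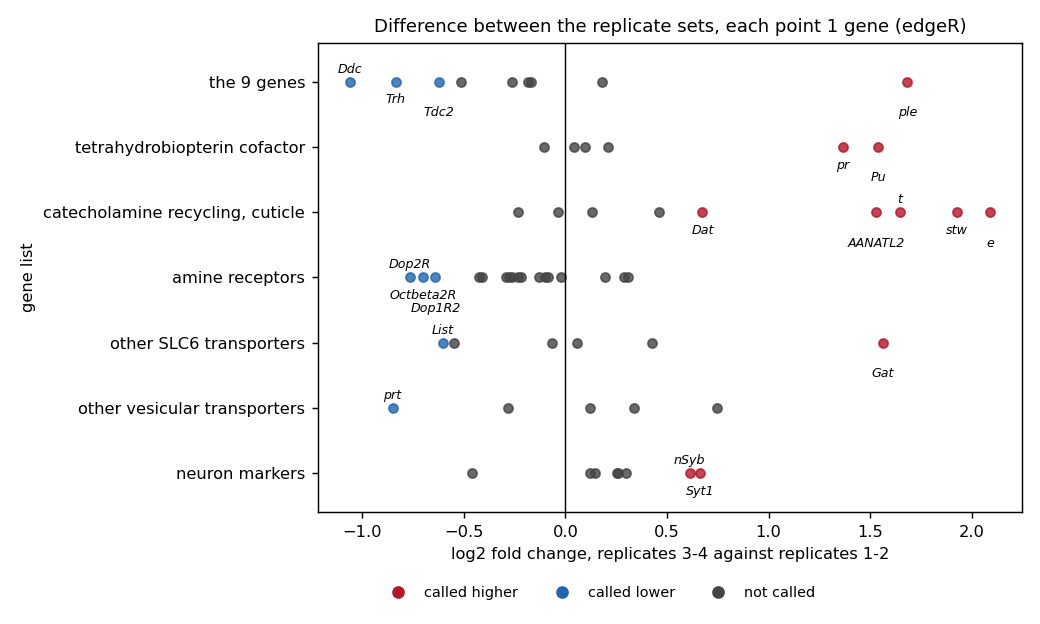
log2 fold change of replicates 3-4 against replicates 1-2 (x axis) for the genes tested in each list (rows), with 1 point per gene, red for called higher, blue for called lower and grey for not called. *ple* at 1.68 stands apart from the other 8 members, which lie between -1.06 and 0.18.

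Ratios taken within a library do not depend on the scaling between libraries, and are given per kb of exon with no test. *ple* over *Ddc*, the 2 steps to dopamine, was 0.158, 0.101, 1.21 and 1.34 in w1118 replicates 1 to 4 and 0.202, 0.165, 0.709 and 0.936 in Top3b26 replicates 1 to 4. Replicates 1-2 stayed at or below 0.202 and replicates 3-4 at or above 0.709, with both Top3b26 libraries above w1118 in the former set and below in the latter. *Trh* over *Ddc*, the 2 steps to serotonin, ranged only from 0.0796 to 0.119. The sets overlapped in that ratio.

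*DAT* over *ple* was 0.163 to 0.244 in replicates 1-2 and 0.0556 to 0.0966 in replicates 3-4, without overlap between the sets. *SerT* over *Trh* was 0.504, 0.486, 0.79 and 0.681 under w1118 and 0.441, 0.505, 0.699 and 0.879 under Top3b26. The labels overlapped and the sets did not. *Tbh* over *Tdc2* ranged from 2.15 to 3.97 and *Tdc2* over *Tdc1* from 0.639 to 1.31, with overlap between the sets in both ratios.

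**Figure D4:**
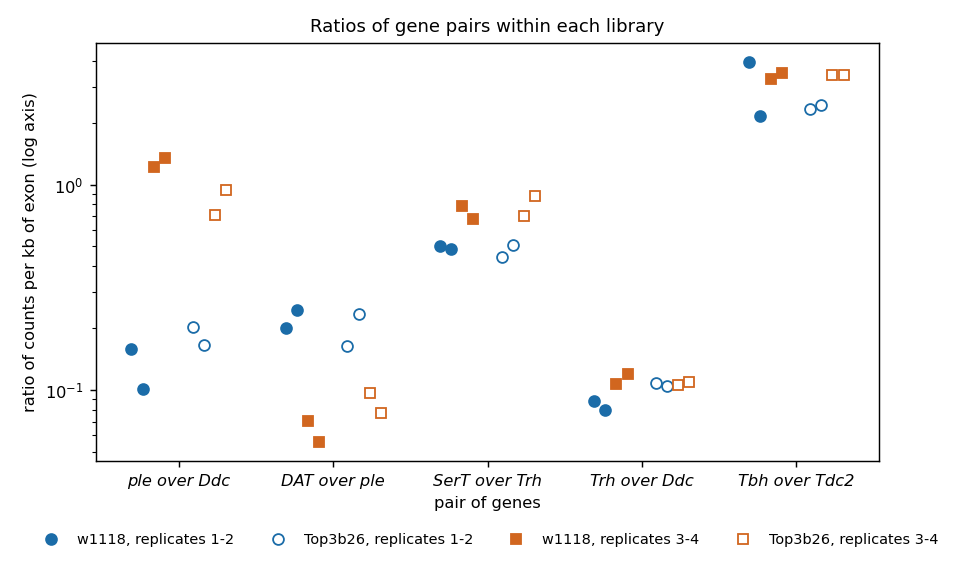
Ratio of counts per kb of exon for 5 pairs of genes (log axis), with 1 point per library, filled for w1118 and open for Top3b26, circles for replicates 1-2 and squares for replicates 3-4. *ple* over *Ddc* is 0.101 to 0.202 in replicates 1-2 and 0.709 to 1.34 in replicates 3-4, whereas *Trh* over *Ddc* stays between 0.0796 and 0.119.

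Per kb of exon, the mean over the 8 libraries was highest for *Ddc*, at 139.8 CPM per kb, then *Vmat* at 76.0, *ple* at 58.5, *Tbh* at 17.0, *Trh* at 13.9, *SerT* at 7.98, *DAT* at 6.26, *Tdc1* at 6.11 and *Tdc2* at 5.91 CPM per kb. *Ddc* was above *Vmat*, *ple* above *Tbh* and *Trh* above *SerT* in all 8 libraries. The remaining neighbors were not separated in this way, with *Vmat* above *ple* in 5 libraries, *Tbh* above *Trh* in 6, *SerT* above *DAT* in 7, and *DAT* above *Tdc1* and *Tdc1* above *Tdc2* in 5 each. *ple* ranked 1 of 9 in w1118 replicates 3 and 4 and 3 of 9 in all 4 libraries of replicates 1-2.

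**Figure D5:**
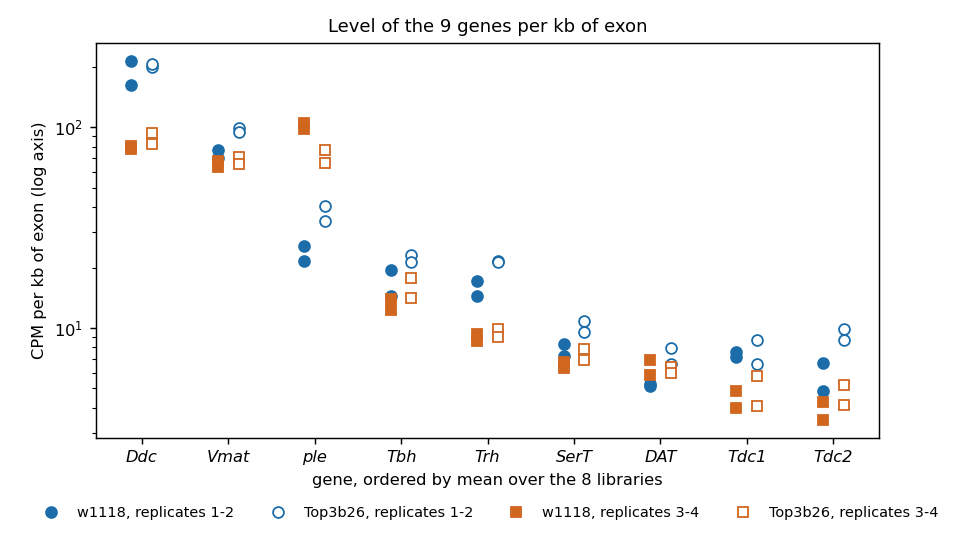
Level of each gene in CPM per kb of exon (log axis), ordered by the mean over the 8 libraries, with filled symbols for w1118, open symbols for Top3b26, circles for replicates 1-2 and squares for replicates 3-4. Means run from 139.8 for *Ddc* to 5.91 for *Tdc2*, and the *ple* libraries span 21.6 to 105.1.

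Genes around the pathway were described from lists, by counts and medians without a set test. Between labels, the median log2 fold change of all genes was -0.01 and that of the 9 members 0.11. The 6 tetrahydrobiopterin genes had a median of -0.15 with 0 called, led by *pr* (-0.80, edgeR adjusted p = 0.526) and *Dhpr* (-0.65, adjusted p = 0.115), a dihydropteridine reductase. Within the sets *pr* was called lower in both, at -0.80 and -0.77, and *Dhpr* was called lower in replicates 3-4 (-0.88), so that 1 and 2 of the 6 were called. Between the sets *Pu*, the GTP cyclohydrolase that starts cofactor synthesis, and *pr*, the pyruvoyltetrahydropterin synthase that follows it, rose in replicates 3-4 by 1.54 and 1.37, as did *ple*. *Pu* read 237 to 307 CPM in replicates 1-2 and 618 to 810 CPM in replicates 3-4, without overlap. The other 4 genes of the list lay between -0.11 and 0.21.

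In the list on catecholamine recycling and cuticle, 9 of 10 genes were tested, and 0 were called between labels (median -0.40). The largest estimates were *t* (tan, -1.26, edgeR adjusted p = 0.475), which releases dopamine and histamine from their beta-alanyl conjugates, and *e* (ebony, -0.61, adjusted p = 0.780), which forms these conjugates. *t* was called lower in both sets, by -2.95 (adjusted p = 3.1e-12) in replicates 1-2 and -0.70 (adjusted p = 0.0027) in replicates 3-4. In replicates 1-2, 3 of the 9 passed, 2 upward and 1 downward, and in replicates 3-4, 4 passed, each downward. *e* read 17.3, 12.4, 106 and 110 CPM under w1118 and 31.1, 26.0, 50.9 and 72.7 CPM under Top3b26. As with *ple*, the Top3b26 libraries were above w1118 in replicates 1-2 (0.75, adjusted p = 0.021) and below in replicates 3-4 (-0.90, adjusted p = 0.0015), and both differences were called. The difference between the sets was -1.68 for *e* (SE 0.26, adjusted p = 3.3e-04) and 2.22 for *t* (SE 0.21, adjusted p = 1.2e-06), opposite in sign.

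Between the sets, 5 of the 9 genes of this list were called higher in replicates 3-4 and 0 lower. They were *e* (2.09), *laccase2* (now *stw*, the phenol oxidase of cuticle tanning, 1.92), *t* (1.65), *CG9486* (now *AANATL2*, 1.53) and *Dat* (0.67), an N-acetyltransferase of dopamine and serotonin. The 4 cuticle epithelium markers *e*, *laccase2*, *y* and *Cpr49Ae*, of which *e*, *laccase2* and *y* also belong to this list, summed to 106 to 160 CPM in replicates 1-2 and 284 to 358 CPM in replicates 3-4. *y* read at most 3.63 CPM and was not tested. The 3 tested were called higher in replicates 3-4 than in replicates 1-2, the direction of *ple* and not of *Ddc*. Between labels, only *e* of these shared the change of sign of *ple*. In replicates 1-2 and 3-4, *laccase2* was at 0.28 and 0.26, and *Cpr49Ae* at -1.16 and -0.44. The part of these markers in *ple* or *Ddc* was not tested.

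Among 9 genes for other uses of aromatic amino acids, 8 were tested, and *w* was called higher in the Top3b26 libraries (2.85, SE 0.31, edgeR adjusted p = 0.0039). *w* encodes a transporter subunit for pigment precursors. It read 0.792, 1.21, 0.635 and 0.790 CPM under w1118 and 5.92, 4.94, 7.68 and 7.82 CPM under Top3b26, without overlap. These are low levels, with 19 counts summed over the w1118 libraries and 154 over the Top3b26 libraries. *w* is the *white* gene, and the paper describes w1118 as a *white* eye mutant from which the *Top3β* mutants were derived. *Hdc*, the histidine decarboxylase of histamine synthesis, followed with -1.45 (adjusted p = 0.282), and was called lower in replicates 1-2 (-2.92, adjusted p = 6.8e-11) and in replicates 3-4 (-0.66, adjusted p = 0.0071). Within the sets, 1 of the 8 was called higher and 4 lower in replicates 1-2, and 1 higher and 3 lower in replicates 3-4. Between the sets, *Hn* (phenylalanine hydroxylase, which makes tyrosine, 1.70), *hgo* (homogentisate dioxygenase of tyrosine breakdown, 1.70), *v* (tryptophan oxygenase, 1.66) and *CG1461* (0.87) were called higher in replicates 3-4, 4 of 8, as *ple* was.

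The list of other vesicular transporters also holds *CG9317* (now *CarT*), which is not a vesicular transporter. Between labels, 0 of its 5 genes were called (median 0.13), led by *CG9317* (-0.61, edgeR adjusted p = 0.741) and *VGAT* (0.30, adjusted p = 0.411). *CG9317* was called lower in replicates 1-2 (-2.90, adjusted p = 3.5e-12) and higher in replicates 3-4 (0.77, adjusted p = 7.7e-04), opposite in both sets to *ple*, and the difference of 3.64 between the sets was called. It was the only gene of this list called in either set. *prt*, a transporter related to *Vmat*, was not called between labels. In the comparison of the sets it was called lower in replicates 3-4 than in replicates 1-2 (-0.85, adjusted p = 0.0011), whereas *Vmat* was not called. Of 8 other SLC6 transporters, the family of *DAT* and *SerT*, 6 were found and tested and 0 were called between labels (median 0.40), led by *CG1732* (now *Gat*, the GABA transporter of glia, 0.68, adjusted p = 0.652) and *ine* (0.50, adjusted p = 0.307). Within replicates 1-2, 3 of the 6 were called higher, *CG1732* (1.24), *NAAT1* (0.64) and *ine* (0.61), and within replicates 3-4 none was, with *CG1732* at 0.50 and *ine* at 0.44 (adjusted p = 0.030 and 0.022) under the fold minimum. Between the sets, *CG1732* was called higher (1.56) and *List* lower (-0.60) in replicates 3-4. The amine receptors had 0 of 17 called between labels over all libraries (median 0.21) or within either set, led by *TyrRII* (0.55, adjusted p = 0.342) and *5-HT2B* (0.35, adjusted p = 0.467). In the comparison of the sets, *Dop2R* (-0.76), *Octbeta2R* (-0.70) and *Dop1R2* (-0.64) were called lower in replicates 3-4 than in replicates 1-2, 3 of 17. This was the direction of *Ddc* and *Trh* and not of *ple*.

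For the enzyme that opens each route, the 3 tested genes with the most similar profile over the 8 libraries were found by the root mean square (RMS) difference of centered log2(CPM + 1). Nearest to *ple* were *CG4753* (RMS 0.14), *CR43964* (0.17) and *CG9850* (0.17). *CG9850* ranged from 12.1 to 23.3 CPM in replicates 1-2 and from 50.4 to 69.9 CPM in replicates 3-4. Nearest to *Trh* were *CG4887* (0.06), *morgue* (0.08) and *unc-13-4A* (0.09), each lower in all libraries of replicates 3-4 than in any of replicates 1-2. Nearest to *Tdc2* were *Gyc-89Db* (0.09), *Dip3* (0.10) and *Ptx1* (0.11). These are descriptions over 8 libraries that share the difference between the sets.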

How the data were processed

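The 8 deposited files hold whole-number read counts per gene symbol, 1 file per library, which the authors made without normalization from reads mapped to dm6 (TopHat2 2.1.1 per the labels' processing notes). The header of w1118 replicate 2 says CPM, but its values are whole numbers summing to 3301976 and were used as counts. Rows for reads on no gene (43.1% to 48.9% of reads) or with several alignments (16.6% to 30.4%) were left out. Counts were divided by library totals for CPM and fitted with edgeR 4.0.16 (filterByExpr by label, TMM, glmQLFit, glmQLFTest), with limma 3.58.1 (voom) and DESeq2 1.42.0 (R 4.3.3) as alternatives. A standard error was obtained by dividing the size of the log2 fold change by the root of the F statistic. The fits were also run on simulated counts, in which no gene had a label difference that varied between the sets. That run checked the code and does not bear on the differences of *ple* within the sets. Of the symbols, 98.8% matched the annotation. Libraries with the same replicate number, as the labels give it, deviated together (lowest r 0.437, mean 0.545). Different numbers of a set did so no less (mean 0.565), so these values do not single out the number within a set. The block on the number is given as an alternative beside the set term.

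The members and lists were chosen with earlier results of these data known. By rule, all 9 members, *Top3β*, genes of the pathway lists called between labels and the 2 with the largest estimates in each were named. Genes named for the replicate sets were chosen after their values were seen, and marker lists are given by summed levels.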

Additional observations from a re-analysis of the deposited data

Results flagged for a closer look

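*ple* differed between labels in opposite directions in the 2 replicate sets. Its log2 fold change of Top3b26 against w1118 was 0.50 in replicates 1-2 and -0.60 in replicates 3-4, and the difference, -1.13 (SE 0.18, edgeR adjusted p = 5.0e-04), passed the test, as 6.93% of all genes did. Both Top3b26 libraries were above w1118 in the former set and both were below in the latter. No single library stood apart in any of the 18 groups of 4 examined by Dixon's test. Each group joins both replicate sets, so where the sets stand apart, as for *ple* and *Ddc*, the test could hardly single out a library.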

How the results depend on the processing

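Without the filter, with stricter filtering, with RLE or upper-quartile factors and with an exon length offset, 0 of 9 members were called between labels. The call of *ple* within replicates 3-4 was lost with library totals alone (0 members called, *ple* at -0.49), which in replicates 1-2 called 2 members, *ple* at 0.64 and *Tdc2*. Within replicates 3-4 taken as an alternative to all libraries, 1 member was called lower. All 9 members passed the filter, so the pseudocount alternatives for members below it were not run.

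With the replicate block, 88 genes were called higher and 280 lower over all genes, against 24 and 64 without it, and with a term for the set 136 and 403. DESeq2 gave 60 and 172, replicates 1-2 alone 339 and 681, and replicates 3-4 alone 147 and 575. With library totals alone the split was 34 and 46. The block changed no call of a member, and its value for *Ddc* was 0.0066.

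Between labels, no member passed the test and several estimates changed sign. *Ddc* was 0.00025 with RLE factors, 0.12 with library totals alone, 0.0086 without the filter, 0.0018 with the set term and 0.041 in replicates 3-4. With the exon length offset *Vmat* was -0.094, *DAT* -0.095 and *SerT* -0.013, and in replicates 3-4 *Vmat* was -0.050, *DAT* -0.15 and *Trh* -0.039. *Tdc1* was 0.11 with library totals alone, 0.0086 with limma-voom and 0.084 in replicates 3-4. *ple* was 0.50 in replicates 1-2. The cause of these changes was not tested.

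With 1 library left out, values ranged from -0.63 to 0.060 for *ple*, -0.19 to 0.30 for *Ddc*, -0.0095 to 0.19 for *DAT* and -0.17 to 0.12 for *Tdc1*. Genes called over all libraries ranged from 12 to 15 higher and 29 to 48 lower. Members called ranged from 0 to 1 higher within replicates 1-2 (*ple* 0.38 to 0.64) and from 0 to 1 lower within replicates 3-4 (*ple* -0.73 to -0.49), with the lone library left under a label assumed to vary like the other label's pair. Between the sets 1 member was called higher and 2 to 4 lower. *Tdc1* was also called there with upper-quartile factors (-0.61) and library totals alone (-0.68), and *Tdc2* was not called with the exon length offset (-0.49). Depth limits *Tdc1*, *Tdc2* and *DAT* most, at 45 to 161 counts per library.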
